A study of Mus musculus with 16 samples.

Results

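Imprinted genes are those of which only the copy from 1 parent is active, and the genes described here are 32 such genes linked to the control of growth. They were found by an exact match of their symbols in the deposited expression table, which holds 54532 genes, and all 32 were present. By textbook knowledge of the mouse, 12 are expressed from the maternal copy and 19 from the paternal copy, while Gnas gives transcripts from either copy depending on its promoter. The expression values were measured by mRNA sequencing of mouse aortas stripped of their adventitia, the outer connective tissue layer. By the labels all mice were males of strain C57BL/6j, aged 8 to 12 weeks, and Apoe-/-, that is lacking apolipoprotein E, which makes mice prone to atherosclerosis. An osmotic pump delivered either 0.9% sodium chloride (saline) or 1000 ng/kg/min of angiotensin II (Ang II), a peptide that raises blood pressure and is used to provoke aortic aneurysms. Aortas were taken on day 7, with 8 libraries per group. The labels do not say that each library was a separate mouse, so the p-values measure the spread between these libraries.

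Imprinted genes lie in clusters in which a control region, methylated on 1 parental copy only, sets which copy of each neighbour is active. In many clusters a long noncoding RNA is made from 1 copy and the protein-coding neighbours from the other. A classical view of imprinting holds that paternally expressed genes such as Igf2, Peg3 and Mest favour growth, whereas maternally expressed genes such as Cdkn1c, Grb10 and Igf2r restrain it. In many organs most of these genes are known to be turned down after birth. The libraries carry no information on parental alleles here, so a level is the sum over both copies.

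The results turn on 2 clusters, and their start regions are shown first because the RNAs of each cluster did not move alike. In the Dlk1-Meg3 cluster on chromosome 12, the maternal copy gives the noncoding RNAs Meg3, Rian and Mirg, which are commonly described as parts of 1 long transcription unit that starts at Meg3. In the Igf2r cluster on chromosome 17, the paternal noncoding RNA Airn starts inside Igf2r on the opposite strand. The sequences below are the 250 bases before each start (the first start, for Meg3), from RefSeq (GRCm38.p6), read 5′ to 3′ on the strand of the gene; the capitals mark the only match to the motif TGCCGC, bound by the imprint-protecting factor ZFP57, which reads GCGGCA on the other strand.
Meg3, chr12:109540746-109540995, plus strand: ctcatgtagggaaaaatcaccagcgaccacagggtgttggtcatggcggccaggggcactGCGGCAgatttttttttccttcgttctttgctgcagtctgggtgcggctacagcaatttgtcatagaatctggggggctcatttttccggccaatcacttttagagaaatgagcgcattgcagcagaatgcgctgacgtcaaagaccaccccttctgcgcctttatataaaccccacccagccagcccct
Rian, chr12:109603695-109603944, plus strand: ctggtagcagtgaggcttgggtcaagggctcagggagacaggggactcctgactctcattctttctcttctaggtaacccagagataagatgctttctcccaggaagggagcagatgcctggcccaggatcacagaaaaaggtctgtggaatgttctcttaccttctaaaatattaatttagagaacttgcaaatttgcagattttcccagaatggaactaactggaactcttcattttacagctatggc
Igf2r, chr17:12769707-12769956, minus strand: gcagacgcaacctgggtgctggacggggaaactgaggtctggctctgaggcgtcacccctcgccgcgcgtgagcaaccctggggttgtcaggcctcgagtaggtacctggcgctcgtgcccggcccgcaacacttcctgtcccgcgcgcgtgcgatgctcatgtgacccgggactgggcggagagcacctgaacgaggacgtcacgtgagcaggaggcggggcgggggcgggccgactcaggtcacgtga
Airn, chr17:12741061-12741310, plus strand: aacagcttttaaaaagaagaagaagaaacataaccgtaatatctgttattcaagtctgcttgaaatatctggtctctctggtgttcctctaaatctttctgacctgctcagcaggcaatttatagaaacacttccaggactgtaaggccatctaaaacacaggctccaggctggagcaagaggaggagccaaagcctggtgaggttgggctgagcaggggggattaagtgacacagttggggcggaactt
The Igf2r sequence holds 27 CpG dinucleotides and the Meg3 sequence 10. The Rian sequence holds 0 and the Airn sequence 2. TGCCGC, searched on both strands in windows from 250 bases before to 50 bases after a start, was found in 11.61% of 32851 RefSeq promoters. Within the set, 25 genes matched the RefSeq table with 38 promoters, and it was found in 9 of these, which belong to Grb10, Meg3, Mest, Nnat, Plagl1, Snrpn, Zdbf2 and Zim1. The Mest windows among the 9 start at 30737800 and 30737803 on chromosome 6 and so overlap. The motif contains a CpG, and the promoters of the set held a median of 12.5 CpG dinucleotides against 7 for all promoters. No comparison at equal CpG content was made. The YY1 motif GCCATNTT was present in 6.05% of all promoters and, within the set, for Mkrn3 alone. The PLAGL1 motif GGGGCCCC was present in 1.08% of all promoters and for Peg3, Ppp1r9a and Usp29, where Peg3 and Usp29 are divergent neighbours with overlapping windows. A match is a description of the letters in these windows and does not show binding.

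The gene model of Rian, the member with the clearest rise, also contains 3 microRNA genes on its own strand, compared with 14 in Mirg and 2 in Meg3. Their mature sequences from RefSeq are given 5′ to 3′ with the seed, bases 2 to 8, in capitals.
mmu-miR-341-5p: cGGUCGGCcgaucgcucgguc
mmu-miR-341-3p: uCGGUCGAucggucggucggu
mmu-miR-1188-5p: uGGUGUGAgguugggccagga
mmu-miR-1188-3p: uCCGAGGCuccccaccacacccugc
mmu-miR-370-5p: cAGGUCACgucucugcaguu
mmu-miR-370-3p: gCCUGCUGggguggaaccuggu
No seed was shared among these 6 microRNAs. Mature microRNAs are too short to be measured by mRNA libraries, and the precursor genes Mir341, Mir370 and Mir1188 were above 0 in 3, 2 and 8 of the 16 libraries.

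Levels are in FPKM, fragments scaled to transcript length and library size, and the libraries held 14606864 to 19988730 reads. A gene was tested where its mean FPKM over the 16 libraries was at least 0.5, on log2(FPKM + 1) with limma and Benjamini-Hochberg adjustment over all 15007 genes tested, at a threshold of 0.05. Fold changes on this scale understate the change of low genes. Before any result, 3 saline libraries stood apart: on the first principal component, which held 46.9% of the variance, Saline 8 lay at -108.8, Saline 7 at -67.6 and Saline 2 at -47.5, and the other 13 libraries lay between -9.47 and 37.1. Saline 8 and Saline 7 had the fewest genes above 0 (18592 and 19895), while Saline 2 had 21458 and the other libraries 20109 to 22129. Saline 2 and Saline 8 had the fewest reads. Why these libraries stood apart was not tested. The marker check found the smooth muscle genes of the aortic wall high in all libraries (summed FPKM of 7 markers 8795 to 15104 with saline and 6231 to 10603 with Ang II). Of these 7 markers, 3 were lower with Ang II (Myh11, Smtn and Lmod1). White adipocyte markers, which mark fat around the vessel, were present too (14 markers summed to 191 to 743 with saline and 116 to 318 with Ang II, with 4 of 13 tested lower). The lower markers were Plin4, Pnpla2, Fabp4 and Lipe, and the others, among them Adipoq, Plin1, Cidec, Cfd and Retn, did not pass. Plin4 and Pnpla2, at means of 113 and 92.4 FPKM in saline, were the largest parts of the sum. The white sum was highest in Saline 8. Of 5 brown adipocyte markers, 4 were tested and 1, Cidea, was lower. Their sum was 175 FPKM in Saline 8 and 131 in Saline 2, against 18.2 in Saline 7 and 6.03 to 76.2 in the others. Apoe was read at 37.0 ± 32.2 FPKM with saline and 12.1 ± 3.24 with Ang II (SD, n = 8 each). Reads of Apoe go against the Apoe-/- label, as do the library names, which read WT; which part of the gene they came from is not known here, so the genotype is given only as labelled.

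Of the 32 genes, 19 could be tested: 8 maternally expressed, 10 paternally expressed and Gnas. With Ang II, Rian and Igf2r were higher and Cdkn1c and Peg13 were lower, while the other 15 did not pass. Over all genes tested, 34.5% were called in either direction, 9.54% as higher and 24.9% as lower, so 2 of 19 is near the background in the higher direction and under it in the lower. After median ratio scaling, with 2 members again called in each direction, 14.9% of all genes were called higher and 14.1% lower, so the background in the lower direction depends on the scaling. All the members are bulk measurements, in which fewer cells of a type and less RNA per cell cannot be told apart.

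**Figure D1:**
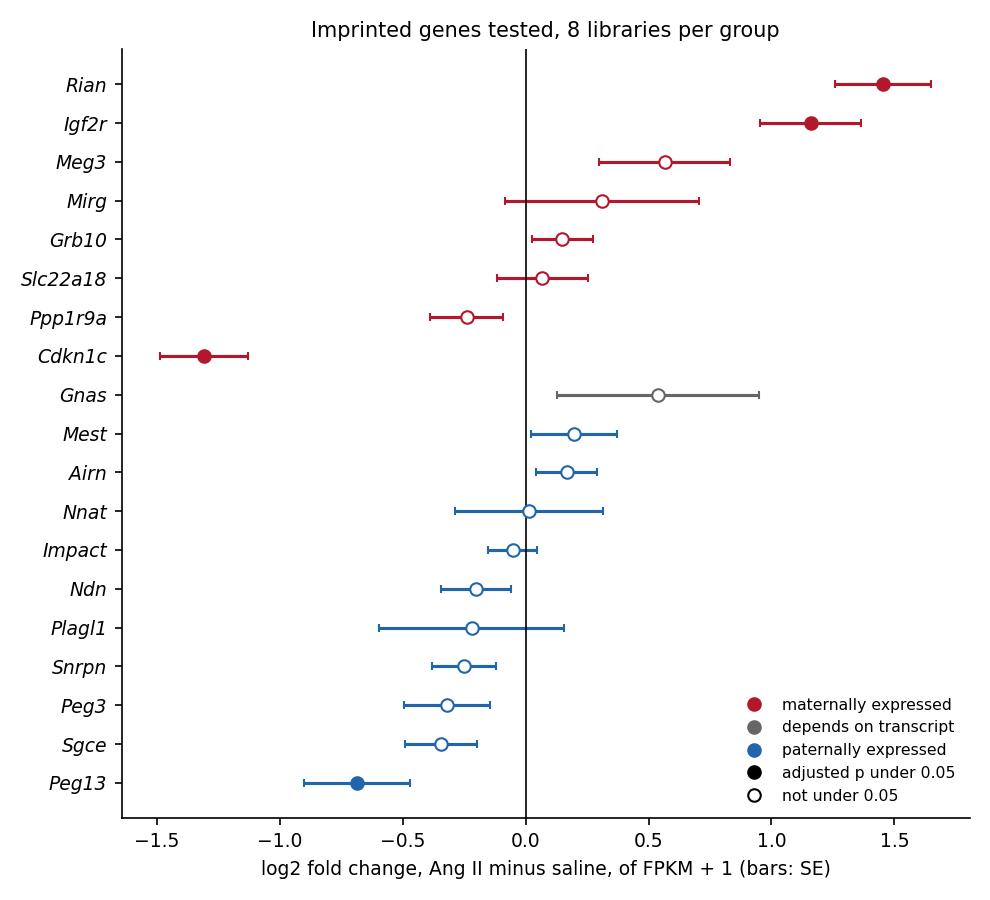
Log2 fold change (Ang II minus saline, on log2(FPKM + 1)) for the 19 imprinted genes tested, with bars of 1 SE, coloured by the parental copy expressed and filled where the adjusted p was under 0.05. Rian at 1.45 and Igf2r at 1.16 lie to the right, Cdkn1c at -1.31 and Peg13 at -0.69 to the left, and the remaining genes lie closer to 0.

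In the Dlk1-Meg3 cluster Rian showed the clearest change of the 19. Rian (chr12:109603940-109661716, plus strand, GRCm38), a noncoding RNA that hosts small nucleolar RNAs and microRNAs, was read in Saline 1 to 8 at 25.7, 50.4, 22.3, 51.3, 34.1, 28.9, 32.7 and 26.3 FPKM. In Ang II 1 to 8 it was read at 92.5, 62.3, 117.5, 132.6, 107.8, 63.0, 101.1 and 76.2 FPKM. The 2 groups did not overlap, with Ang II above saline throughout, a separation in this direction seen for 2.74% of the genes tested. The mean rose from 34.0 ± 11.1 to 94.1 ± 25.5 FPKM (SD, n = 8 each), a log2 fold change of 1.45 (SE 0.19, limma adjusted p = 3.48e-05). Rian kept this call in all 28 alternative analyses run, with log2 fold changes between 1.23 and 1.65. The values rest on 571 to 3260 reads per library.

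Meg3 (chr12:109541001-109571726, plus strand), the noncoding RNA at the head of the cluster and one known to slow cell division in culture, did not pass. Its saline values in libraries 1 to 8 were 40.9, 92.6, 44.2, 64.6, 47.6, 53.9, 100.3 and 200.4 FPKM. Its Ang II values were 81.5, 86.1, 146.3, 122.9, 121.2, 89.8, 100.1 and 98.3 FPKM. Saline 8 held the highest value of all 16 and Saline 7 and Saline 2 lay within the Ang II range, whereas the other 5 saline libraries lay below all the Ang II libraries. The difference was 0.57 on the log2 scale (SE 0.27, limma adjusted p = 0.106). Without Saline 8 it was 0.78 (adjusted p = 0.00507), without Saline 7 and Saline 8 0.90 (0.00108), and without Saline 2, Saline 7 and Saline 8 1.05 (0.000101), each past the threshold. Quantile normalization also took Meg3 past it, and only these 4 of the 28 alternatives did. The omitted libraries hold the highest saline values of Meg3, so leaving them out raises its difference by construction. For Rian the same omission of Saline 7 and Saline 8 gave 1.41.

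Mirg (chr12:109729764-109749460, plus strand), the host of the large microRNA cluster at the far end, was lower in level than its neighbours. Its saline values in libraries 1 to 8 were 3.36, 6.54, 1.86, 4.70, 2.61, 2.21, 13.2 and 24.9 FPKM, and its Ang II values 9.16, 7.49, 7.67, 11.5, 8.12, 3.30, 6.16 and 3.86 FPKM. Saline 8 and Saline 7 were the highest of all 16, and the groups overlapped. The log2 difference was 0.31 (limma adjusted p = 0.563), and it was 0.85 without Saline 7 and Saline 8 (adjusted p = 0.0177). The call for Mirg therefore depended on these libraries, with 0.60 and no call without Saline 8 alone (0.147).

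**Figure D2:**
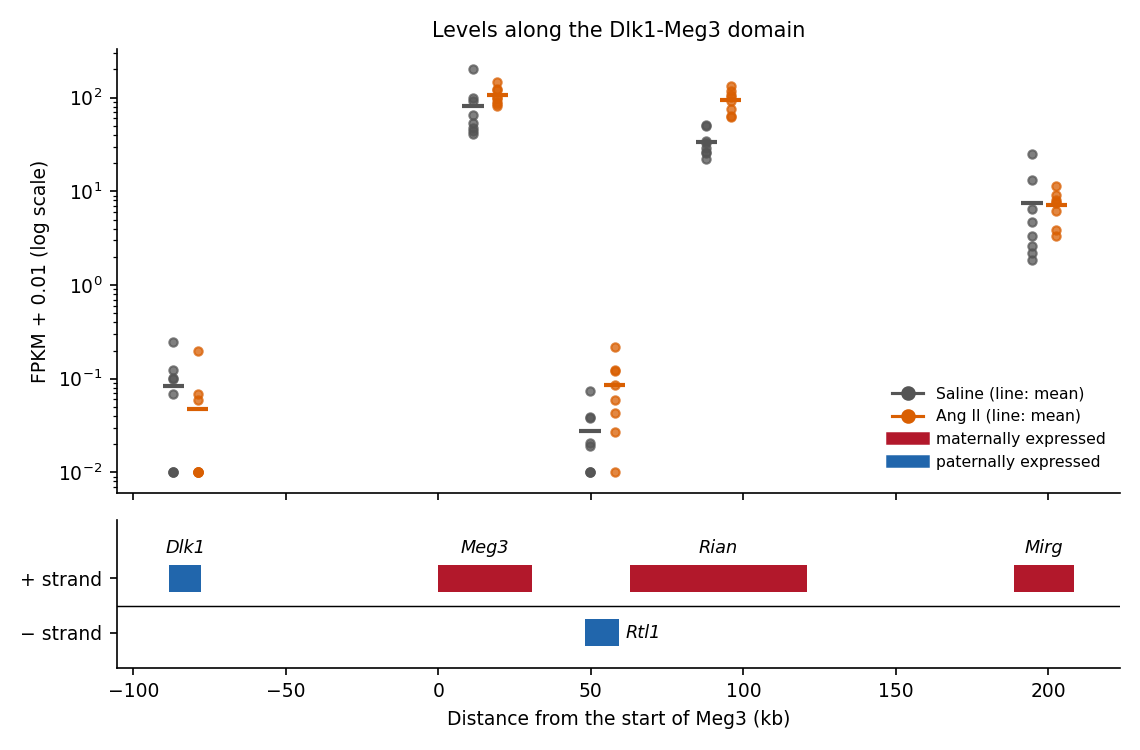
FPKM + 0.01 on a log axis for the 5 genes of the Dlk1-Meg3 cluster, 1 point per library and a line at each group mean, above a map of the genes by distance from the start of Meg3 in kilobases. Meg3, Rian and Mirg lie on the plus strand between 0 and 208.5 kb and are read at 1.86 FPKM or above, while Dlk1 and Rtl1 stay under 0.25 FPKM.

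The paternally expressed coding genes of the same cluster were near the floor. Dlk1, which encodes a membrane protein of the Notch ligand family that holds back adipocyte differentiation, was read at 0.0733 FPKM with saline and 0.0373 with Ang II, from 19 and 10 reads over 8 libraries each. Rtl1, a retrotransposon-derived gene needed in fetal vessels of the placenta, was read at 0.0176 and 0.0757 FPKM, from 14 and 66 reads. Neither was tested, and 8.399% of the exon bases of Rtl1 overlap small RNA genes, most of them on the opposite strand. Without knowledge of whether counting used strand, these reads cannot be given to either strand.

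The 3 maternal RNAs of this cluster did not keep 1 ratio to each other. Rian divided by Meg3 ran from 0.131 to 0.794 in saline (median 0.540) and from 0.702 to 1.13 with Ang II (median 0.845). The mean log2 ratio was 0.91 higher with Ang II (two-sided exact permutation test over 12870 assignments, p = 0.0014, 0.0021 after adjustment over 3 ratios), with 5 of 8 Ang II libraries above all saline libraries. The lowest ratios were those of Saline 8 (0.131) and Saline 7 (0.326), and without both the difference was 0.52 (exact permutation p = 0.00599). Mirg divided by Meg3 ran from 0.0410 to 0.132 in saline and from 0.0368 to 0.112 with Ang II, a difference of -0.15 (exact permutation p = 0.628). These ratios were chosen after the values were seen, and FPKM here divides by the mean length of a gene's transcript models (2702 bases for Meg3, 1466 for Rian, 1632 for Mirg), so only the change of a ratio between groups is free of that length.

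Within saline, Meg3 and Mirg varied together across the 8 libraries (Pearson's r = 0.951, exact permutation p = 0.000818, 0.00655 after adjustment over 8 relations; Spearman's rho 0.833, p = 0.0154, adjusted 0.0615). Without Saline 7 and Saline 8, the farthest from the median of Meg3, r was 0.819. Within Ang II the same r was 0.340 (exact permutation p = 0.407, adjusted 0.650; rho 0.262, p = 0.536, adjusted 0.715), and 0.0188 without Ang II 3 and Ang II 4. Meg3 and Rian had an r of 0.152 within saline (exact permutation p = 0.740, adjusted 0.846; rho 0.405, p = 0.327, adjusted 0.523), and 0.856 once Saline 7 and Saline 8 were left out. With Ang II their r was 0.757 (exact permutation p = 0.0338, adjusted 0.135; rho 0.833, p = 0.0154, adjusted 0.0615), and 0.588 without Ang II 3 and Ang II 4. Only the Pearson relation of Meg3 with Mirg in saline passed after adjustment. In the plot of Rian and Mirg against Meg3, Saline 7 and Saline 8 were high in Meg3 and Mirg and not in Rian.

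**Figure D3:**
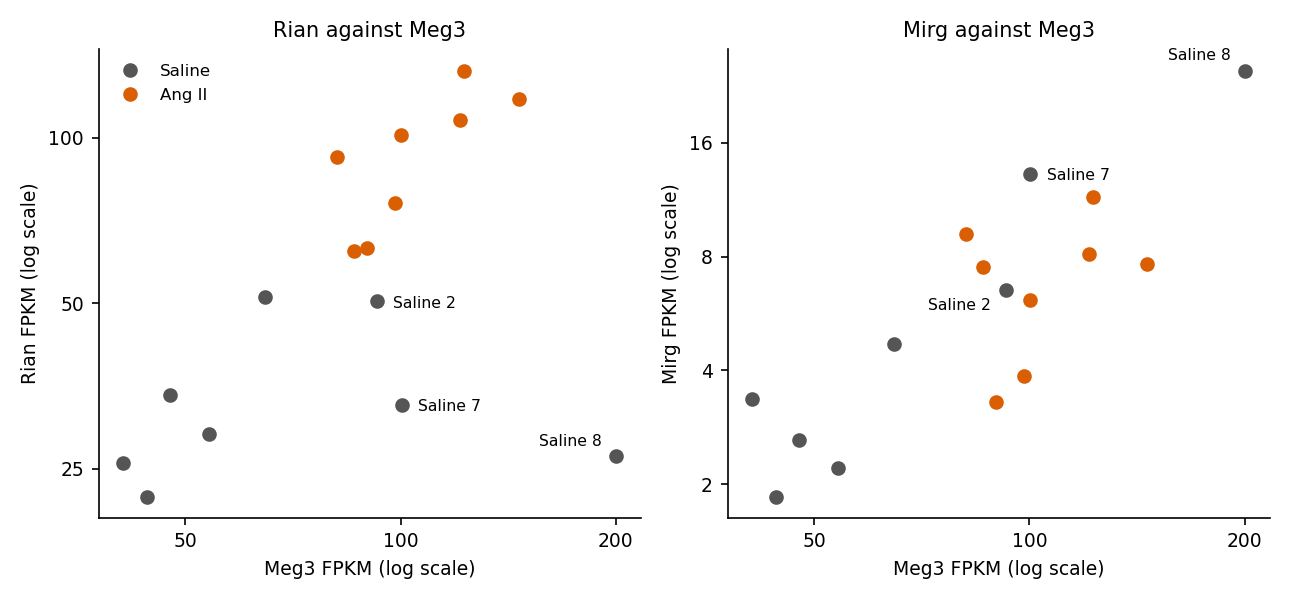
FPKM of Rian (left) and Mirg (right) against Meg3 on log axes, 1 point per library, grey for saline and orange for Ang II, with Saline 2, Saline 7 and Saline 8 named. Saline 8 has 200.4 FPKM of Meg3 and 24.9 of Mirg but only 26.3 of Rian.

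In the Igf2r cluster the coding gene rose and its antisense RNA did not pass. Igf2r (chr17:12682406-12769664, minus strand), the receptor that carries Igf2 to lysosomes for breakdown and sorts lysosomal enzymes, was read in Saline 1 to 8 at 25.4, 25.8, 37.8, 32.5, 29.5, 28.5, 17.1 and 12.4 FPKM. In Ang II 1 to 8 it was read at 37.7, 41.1, 64.9, 53.6, 57.8, 84.4, 63.4 and 65.2 FPKM. All the Ang II libraries but Ang II 1 lay above the highest saline library, Saline 3, and Ang II 1 and Saline 3 were nearly level. Complete separation in this direction, which Igf2r missed, was seen for 2.74% of the genes tested. The share of genes with 7 of 8 Ang II libraries above was not computed. The mean rose from 26.1 ± 8.15 to 58.5 ± 14.8 FPKM (SD, n = 8 each), a log2 fold change of 1.16 (SE 0.20, limma adjusted p = 0.000434). The change was 0.92 (adjusted p = 0.000423) without Saline 7 and Saline 8, the lowest in Igf2r.

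Airn (chr17:12741311-12860136, plus strand), the noncoding RNA whose transcription silences the paternal Igf2r copy, ranged from 11.6 through a median of 20.7 to 22.2 FPKM in saline and from 19.1 through 20.4 to 24.3 with Ang II. The groups overlapped (log2 fold change 0.17, limma adjusted p = 0.314). Igf2r divided by Airn ran from 0.654 to 2.54 in saline (median 1.47) and from 1.91 to 3.64 with Ang II (median 2.88), with 6 of 8 Ang II libraries above all saline libraries. The mean log2 ratio was 1.02 higher with Ang II (exact permutation p = 0.000932, 0.0021 after adjustment over 3 ratios). It was 0.72 higher without Saline 7 and Saline 8 and 0.62 without Saline 2 as well. This ratio too was chosen after the values were seen. It mostly restates the rise of Igf2r and is not separate evidence. Within groups the 2 genes gave no relation that passed: r was -0.04 in saline (exact permutation p = 0.934, adjusted 0.934; rho 0.143, p = 0.752, adjusted 0.859) and 0.476 with Ang II (exact permutation p = 0.227, adjusted 0.455; rho 0.595, p = 0.132, adjusted 0.342), and 0.327 and 0.706 without the 2 libraries farthest in Igf2r. The exons of the annotated models do not overlap, but unspliced Igf2r RNA covers part of Airn, and its share in the Airn value was not tested.

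Igf2, the growth factor cleared by this receptor, was hardly detected. It was read at 0.203 ± 0.170 FPKM in saline and 0.0469 ± 0.0461 with Ang II, below the filter. H19, the maternal noncoding RNA next to Igf2, was also below it at 0.314 ± 0.373 and 0.594 ± 0.311 FPKM, from 50 and 103 reads over each group. Igf2r has a neighbourhood of transporter genes that are imprinted in the placenta, and both that were listed fell: Slc22a2 from 4.97 ± 2.31 to 1.55 ± 0.540 FPKM (log2 fold change -1.17, adjusted p = 0.00031) and Slc22a3 from 1.93 ± 1.13 to 0.362 ± 0.327 FPKM (-1.05, adjusted p = 0.00124). These organic cation transporters lie in the same cluster as Igf2r and changed in the other direction. They were named because they had the smallest adjusted p of the genes that fell among the 26 other imprinted genes tested. Over all genes tested 24.9% were lower, or 14.1% after median ratio scaling.

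Cdkn1c fell most of the 19. It encodes p57, an inhibitor of cyclin-dependent kinases that holds cells out of division, and lies in the Kcnq1 cluster (chr7:143458339-143461050, minus strand). In Saline 1 to 8 it was read at 22.1, 21.8, 20.1, 11.04, 17.4, 18.7, 19.5 and 12.1 FPKM. In Ang II 1 to 8 it was read at 3.96, 7.75, 6.18, 6.87, 5.38, 11.4, 5.405 and 6.46 FPKM. Only Ang II 6 reached above the lowest saline library, Saline 4. A stricter pattern, all 8 Ang II libraries below all 8 saline libraries, was seen for 5.62% of the genes tested. Cdkn1c did not meet it, and the share of genes with its own pattern was not computed. The mean fell from 17.9 ± 4.18 to 6.67 ± 2.21 FPKM (SD, n = 8 each), a log2 fold change of -1.31 (SE 0.18, limma adjusted p = 4.19e-05), and the call stood in all 28 alternatives, between -1.43 and -1.18. A single antisense gene, Gm44732, overlaps 30.65% of the exon bases of Cdkn1c, and it was itself read at 0.0457 FPKM in saline and 0.0218 with Ang II.

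Markers of dividing cells moved the other way in the same libraries. All 6 of them, Mki67, Top2a, Ccnb1, Cdk1, Bub1 and Cdc20, rose, and their summed FPKM went from 4.84 to 8.29 in saline to 38.2 to 91.4 with Ang II. Macrophage markers were higher for 3 of 7 (summed FPKM 7.74 to 139 against 23.8 to 176), and 1 of 8 fibroblast markers rose while 1 fell (388 to 688 against 749 to 1359, most of it Col15a1 and Mfap5). Endothelial markers were lower for 2 of 6 (532 to 1440 against 164 to 1237), and for 1 of 6 after median ratio scaling. Over all genes tested, 24.9% were lower, or 14.1% after that scaling. No marker of these lists was at 0 in every library. The part of cell makeup in the changes of Cdkn1c, Rian and Igf2r was not tested. With an adipocyte marker score as a covariate the differences were -1.24, 1.23 and 0.94 (limma adjusted p = 0.00072, 0.00074 and 0.00804). That score averages the white adipocyte markers tested and itself ran from -0.77 to 1.70 in saline and from -1.13 to 0.56 with Ang II. With it as a covariate, Plin4 and Pnpla2 were still lower (-0.80 and -0.54, limma adjusted p = 0.00247 and 0.0142). Plin1 was higher (0.59, limma adjusted p = 0.0286), so the score did not stand for all these markers alike. No score of another cell type was used.

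The other 3 genes of the set in the Kcnq1 cluster were low. Slc22a18, a maternally expressed membrane transporter, ranged from 0.217 through 0.830 to 1.597 FPKM in saline and from 0.461 through 0.828 to 2.12 with Ang II (log2 fold change 0.07, limma adjusted p = 0.7999). Kcnq1ot1, the paternal noncoding RNA that silences the cluster, was at 0.153 ± 0.0849 and 0.0948 ± 0.0170 FPKM, below the filter, although its long model of 93092 bases gathered 1835 and 1237 reads. In limma voom on recovered reads with a filter at a mean of 10 reads, its log2 difference was -0.55 (adjusted p = 0.0958). Phlda2, which limits placental growth, had 1 read in all 16 libraries.

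Peg13, a paternally expressed noncoding RNA within an intron of Trappc9 (chr15:72805600-72810324, minus strand), fell. It was read in Saline 1 to 8 at 22.1, 15.03, 34.8, 25.4, 33.6, 28.2, 18.7 and 10.6 FPKM and in Ang II 1 to 8 at 8.80, 9.32, 16.2, 13.6, 14.2, 15.1, 15.6 and 16.7 FPKM. Saline 8 and Saline 2 lay within the Ang II range, and only Ang II 1 and Ang II 2 lay below every saline library. The mean went from 23.6 ± 8.61 to 13.7 ± 3.03 FPKM (SD, n = 8 each), a log2 fold change of -0.69 (SE 0.21, limma adjusted p = 0.0202). The call was lost with a Wilcoxon rank-sum test (adjusted p = 0.0573) and held in the other 27 alternatives, with -1.03 without Saline 2, Saline 7 and Saline 8. Trappc9, its host on the same strand, fell from 13.2 ± 2.13 to 9.58 ± 1.99 FPKM (log2 fold change -0.43, limma adjusted p = 0.0136, and 0.0673 after median ratio scaling), and reads of unspliced Trappc9 RNA cannot be told apart from Peg13.

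**Figure D4:**
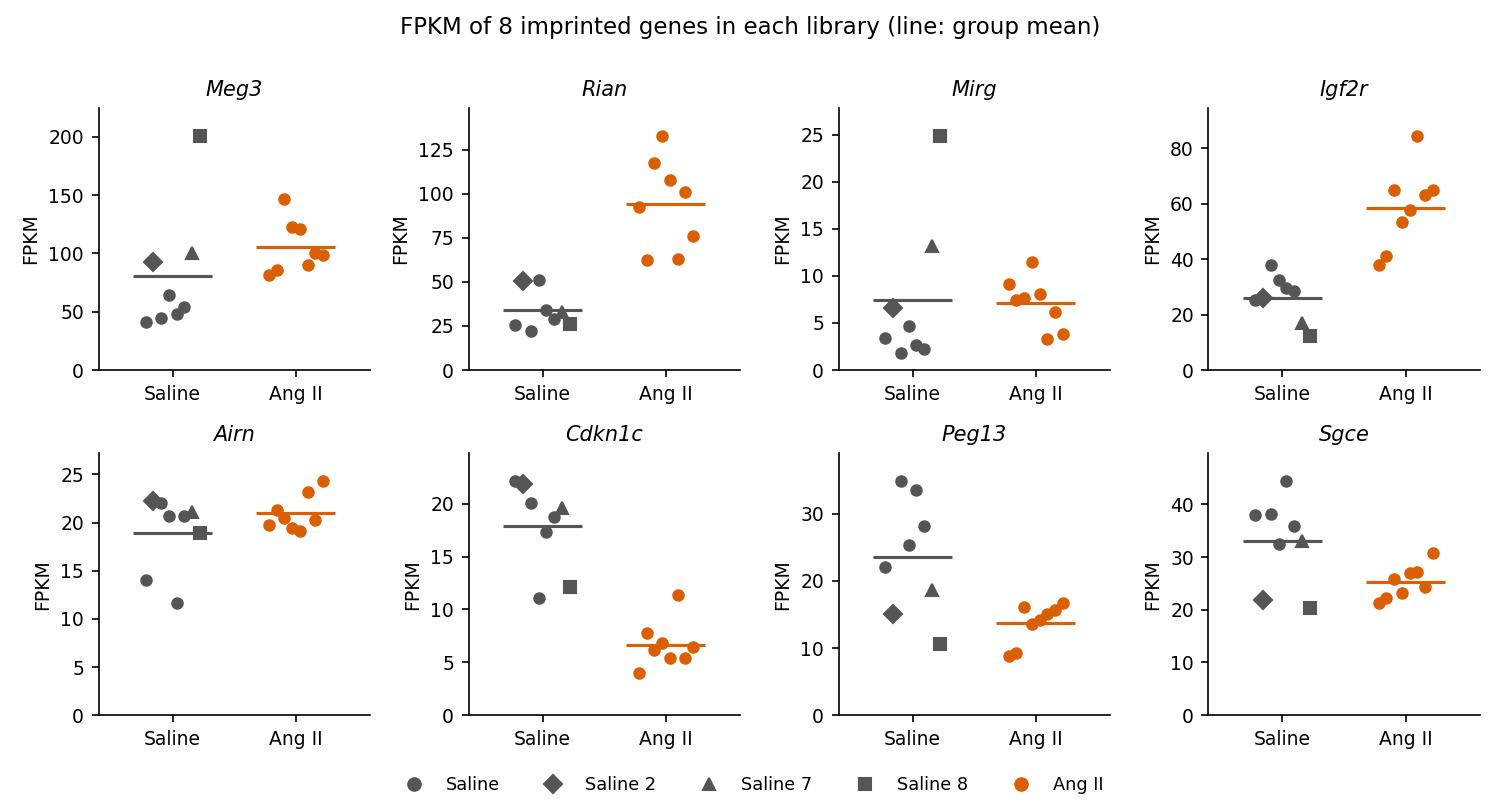
FPKM of 8 imprinted genes in each library, grey for saline and orange for Ang II, with a line at each group mean and Saline 2, Saline 7 and Saline 8 marked. Rian is separated between the groups; Igf2r and Cdkn1c overlap by 1 Ang II library; Meg3 and Mirg reach their highest values in Saline 8.

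In the Peg10 cluster on chromosome 6 no gene passed. Sgce, paternally expressed epsilon-sarcoglycan, a part of the membrane complex that anchors smooth muscle cells to the matrix, ranged from 20.4 through 34.6 to 44.4 FPKM in saline and from 21.3 through 25.1 to 30.8 with Ang II. All the Ang II libraries were under the saline median, a pattern whose share over all genes was not computed. Saline 8 and Saline 2 were the 2 lowest saline libraries. The log2 fold change was -0.35 (SE 0.15, limma adjusted p = 0.0744). Of the 28 alternatives, 5 took Sgce past the threshold: without Saline 2 (adjusted p = 0.0283), without Saline 8 (0.0132), without Saline 7 and Saline 8 (0.0164), without Saline 2, Saline 7 and Saline 8 (-0.57, 0.00049) and with the adipocyte score (0.0326).

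Ppp1r9a, maternally expressed neurabin, an actin-binding scaffold, ranged from 4.49 through 6.12 to 9.67 FPKM in saline and from 3.69 through 5.19 to 6.55 with Ang II (-0.24, limma adjusted p = 0.218). Peg10 itself, a retrotransposon-derived gene needed for the placenta, was at 0.361 ± 0.118 and 0.223 ± 0.0938 FPKM (317 and 208 reads). Asb4, a subunit of ubiquitin ligases, was at 0.400 ± 0.191 and 0.314 ± 0.147 FPKM. Peg10 and Asb4 were below the filter and were not called when read counts were used instead (adjusted p = 0.0694 and 0.576).

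Peg3, a paternally expressed zinc finger factor, was the most abundant gene of its chromosome 7 cluster. It ranged from 15.2 through 25.9 to 39.2 FPKM in saline and from 15.7 through 18.9 to 23.7 with Ang II. Saline 7, Saline 5 and Saline 8 were the lowest saline libraries, at 15.2, 16.9 and 17.002 FPKM. All 8 Ang II libraries were under the saline median, a pattern whose share over all genes was not computed. The log2 fold change was -0.32 (SE 0.18, limma adjusted p = 0.168), -0.50 without Saline 7 and Saline 8 (0.0184) and -0.40 without Saline 2 as well (0.0404). Usp29, its divergent neighbour, had 8 and 1 reads.

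Zim1, the maternally expressed zinc finger gene next to Peg3, was below the filter but differed in reads. It had 58 reads over the saline libraries and 201 over the Ang II libraries, with 3 to 16 and 11 to 51 per library, and 0.134 ± 0.0803 against 0.430 ± 0.199 FPKM (SD, n = 8 each). The counts of 5 of 8 Ang II libraries gave FPKM above every saline library. It was called higher when limma was run with no filter (log2 fold change 0.33 on the compressed scale, adjusted p = 0.00842) and with voom on reads (1.68, adjusted p = 0.00386), where 4.12% and 10.1% of all genes were called higher and 10.2% and 24.4% lower. Zim1 and Peg3, in neighbouring positions and expressed from opposite copies, thus had differences of opposite sign, that of Peg3 not passing over all libraries.

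In the Prader-Willi cluster Ndn and Snrpn were expressed and did not pass. Ndn, necdin, which restrains cell division, ranged from 3.96 through 6.45 to 7.57 FPKM in saline and from 3.84 through 4.86 to 6.24 with Ang II (log2 fold change -0.20, limma adjusted p = 0.286). Snrpn, a component of the splicing machinery, ranged from 5.26 through 7.25 to 8.78 FPKM and from 3.98 through 5.68 to 7.13 (-0.25, limma adjusted p = 0.140). All the Ang II libraries were under the saline median in both genes, a pattern whose share over all genes was not computed. The median log2 fold change of all genes tested was itself -0.12, and relative to it Ndn lay at -0.08 and Snrpn at -0.13. Across saline libraries they had an r of 0.622 (exact permutation p = 0.103, adjusted 0.274; rho 0.548, p = 0.171, adjusted 0.342), which was 0.0714 without Saline 2 and Saline 8, and across Ang II libraries -0.14 (exact permutation p = 0.736, adjusted 0.846; rho 0, p = 1, adjusted 1), which was 0.150 without Ang II 2 and Ang II 6. Exons of other genes overlap 34.14% of those of Snrpn, so its level is uncertain.

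The other 3 genes of the set in that cluster were scarce. Magel2, which takes part in ubiquitin-dependent sorting of proteins, had 0 reads in all 16 libraries. Mkrn3 was at 0.475 ± 0.255 and 0.484 ± 0.124 FPKM, just under the filter. Peg12 was at 0.166 ± 0.136 and 0.302 ± 0.148 FPKM (60 and 113 reads; voom adjusted p = 0.0968).

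Among the imprinted genes that stand alone, none but Peg13 passed. Grb10, an adaptor that damps insulin and IGF1 receptor signalling, overlapped between the groups, ranging from 20.8 through 29.98 to 41.0 FPKM in saline and from 26.4 through 32.5 to 37.4 with Ang II (log2 fold change 0.15, limma adjusted p = 0.360). Gnas, which encodes the stimulatory G protein alpha subunit among other products, spread widely in saline, from 4.16 through 30.9 to 60.2 FPKM, against 20.2 through 39.1 to 52.3 with Ang II (0.54, limma adjusted p = 0.323). Its lowest values were in Saline 8 (4.16), Saline 7 (12.2) and Saline 2 (17.7), and without these 3 the difference was -0.19. The direction for Gnas was thus set by those libraries. Antisense genes overlap 21.96% of its exon bases, and they were themselves near the floor. Gm20721 was read at 0.0839 FPKM in saline and 0.0370 with Ang II, and Nespas at 0.0103 and 0.

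Plagl1, a zinc finger factor described as a regulator of many other imprinted genes, also spread widely. It ranged from 1.99 through 8.01 to 13.7 FPKM in saline and from 1.16 through 6.71 to 10.7 with Ang II (-0.22, limma adjusted p = 0.675), with Saline 8 and Saline 7 at the low end of saline. Mest, an enzyme of the alpha/beta hydrolase fold that marks growing adipose and mesodermal tissue, ranged from 0.408 through 1.603 to 1.99 FPKM in saline and from 1.34 through 1.41 to 3.74 with Ang II (0.20, limma adjusted p = 0.399). Its exons overlap those of antisense Copg2 over 23.12% of their length, and Copg2 was the more abundant at 13.99 ± 4.48 and 16.8 ± 3.36 FPKM. The reads given to Mest may therefore include reads of Copg2.

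Nnat, neuronatin, a small membrane protein of neurons and adipocytes, ranged from 0.162 through 1.42 to 4.79 FPKM in saline and from 0.591 through 1.37 to 3.85 with Ang II (0.01, limma adjusted p = 0.977). Impact, an inhibitor of the stress kinase Gcn2, ranged from 11.9 through 15.6 to 19.3 FPKM and from 12.8 through 14.5 to 16.5 (-0.05, limma adjusted p = 0.6996), and its sign turned under quantile normalization and median ratio scaling. Zdbf2, which acts in the hypothalamus on growth after birth, was at 0.0420 ± 0.0476 and 0.0272 ± 0.0150 FPKM.

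Sorted by the parental copy, the genes tested had medians of different sign. Of the 8 maternally expressed genes 6 had a positive and 2 a negative log2 difference, with a median of 0.23 and a range from -1.31 to 1.45, and 2 were called higher (Rian, Igf2r) and 1 lower (Cdkn1c). Of the 10 paternally expressed genes 3 were positive and 7 negative, with a median of -0.21 and a range from -0.69 to 0.20, and 0 were called higher and 1 lower (Peg13). The median of all 15007 genes was -0.12, so the paternal median differed from it by -0.09 and the maternal median by 0.35. The share of all genes with each sign was not computed. After median ratio scaling, which brought the median of all genes to -0.01, the medians were 0.36 and -0.09. Of the maternal genes 6 were then positive and 2 negative, and of the paternal genes 4 and 6. The members share clusters and 3 of the 8 maternal genes come from the Dlk1-Meg3 cluster alone, so these counts are descriptions and no test was made of them.

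By library, deviations were taken from each gene's mean over the saline libraries, so that saline is centred near 0 by construction. The median deviation of the 8 maternal genes ran from -0.34 to 0.29 in saline and from 0.12 to 0.48 with Ang II. That of the 10 paternal genes ran from -0.39 to 0.23 and from -0.38 to -0.01. The groups overlapped in both. Saline 8 was the lowest of all 16 libraries in both sets. Without Saline 7 and Saline 8, 4 maternal genes were called higher (Rian, Igf2r, Meg3 and Mirg) and 1 lower, and 0 paternal genes higher and 3 lower (Peg13, Sgce and Peg3), where 35.0% of all genes were called, 8.43% as higher and 26.6% as lower. The medians were then 0.43 and -0.24. Without Saline 2 as well the counts called were the same, but the signs were not: 4 maternal genes were positive and 4 negative, and 1 paternal gene positive and 9 negative, against 34.3% of all genes called, 8.0% as higher and 26.3% as lower.

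**Figure D5:**
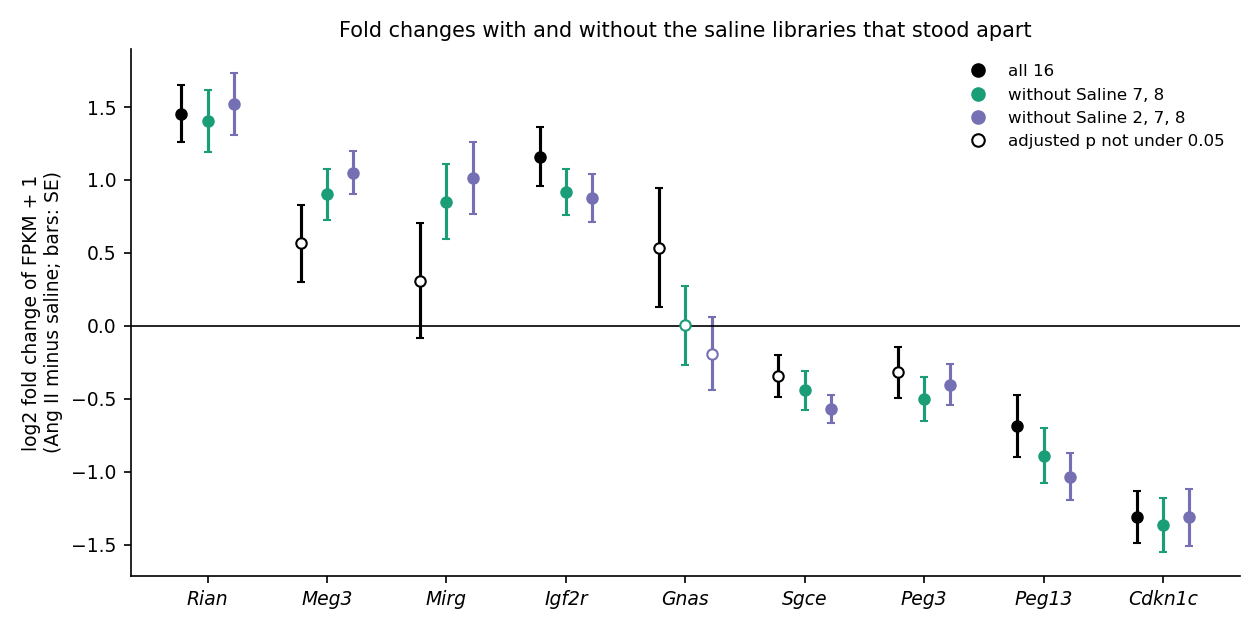
Log2 fold changes with bars of 1 SE for 9 of the tested imprinted genes over all libraries, without Saline 7 and Saline 8, and without Saline 2 as well, with open points where the adjusted p was not under 0.05. Meg3 moves from 0.57 to 0.90 and 1.05 and Mirg from 0.31 to 0.85 and 1.01, while Rian, Cdkn1c and Igf2r are called in each.

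Other imprinted genes and the factors that keep imprints are given for context, from lists chosen with earlier results known. Of 44 other imprinted genes 26 were tested, with 2 higher and 7 lower (3 and 4 after median ratio scaling) and a median of -0.18. Over all genes 9.54% were higher and 24.9% lower (14.9% and 14.1% after median ratio scaling), so these counts are near the background. Gatm, which makes the precursor of creatine, rose from 0.678 ± 0.696 to 2.51 ± 1.42 FPKM (1.05, limma adjusted p = 0.00417), and Cd81, a tetraspanin, from 323.6 ± 62.5 to 418.7 ± 33.7 FPKM (0.39, adjusted p = 0.016), a call lost when the adipocyte score was added (0.25, adjusted p = 0.179). Dcn, the collagen-binding proteoglycan decorin, was at 35.3 ± 31.1 and 19.6 ± 19.1 FPKM and did not pass (-0.78, limma adjusted p = 0.324).

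Of 24 factors that set or keep imprints 22 were tested, with 3 higher and 3 lower (4 and 1 after median ratio scaling) and a median of -0.06, counts that can be read against the same shares over all genes. Uhrf1, which brings the maintenance methyltransferase to newly copied DNA, rose from 0.737 ± 0.279 to 4.13 ± 1.58 FPKM (1.52, limma adjusted p = 6.38e-06). Ezh2, the Polycomb methyltransferase, rose from 3.92 ± 0.603 to 7.08 ± 1.23 FPKM (0.71, adjusted p = 0.000199). Both are commonly higher in dividing cells, whose markers rose in the same libraries, and whether these rises are linked was not tested. Tet1, which oxidizes 5-methylcytosine, fell from 4.38 ± 0.9802 to 2.31 ± 0.736 FPKM (-0.72, adjusted p = 0.0025), and Trim28, the corepressor recruited by ZFP57, fell from 152.1 ± 34.1 to 110.3 ± 5.92 FPKM (-0.43, adjusted p = 0.00703), a call lost after median ratio scaling (0.0873), after quantile normalization (0.126) and with the adipocyte score (0.0878). Methylation was not measured in these libraries.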

How the data were processed

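Total RNA of mouse aortas was made into 16 mRNA libraries (per the labels' protocols). From these the authors deposited 1 table of FPKM on GRCm38 (mm10), per the submitters' processing notes; which aligner and counter were used, and whether strand was, is not stated there. The FPKM divide by the mean transcript length of GENCODE M21, of whose genes 98.3% of those found had the same coordinates (31 of the 32 imprinted genes; Impact differed). With that length 95.8% to 96.3% of values above 0 were whole reads within 0.02, which gave the depths and read counts; reads of Impact were not recovered. Groups came from sample titles, columns from library names, which read WT although the labels give Apoe-/-. No 2 libraries of a group matched within sampling noise (lowest chi-square per degree of freedom 17.9 over 56 pairs).

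limma 3.58.1 (R 4.3.3) with an intensity trend was run on log2(FPKM + 1), two-sided, where a gene's mean was 0.5 FPKM or more, with a threshold of 0.05, and was tested on simulated data. Ratios and correlations had exact permutation tests (Python 3.11.15, scipy 1.17.1). Alternatives were pseudocount 0.1, no filter, a filter at 1 FPKM, quantile and median ratio scaling, a replicate block, an adipocyte score, a Wilcoxon test, each library left out, and Saline 7 and Saline 8 left out. Added after seeing the data were the omission of Saline 2 as well, limma voom on recovered reads (also filtered at a mean of 10 reads) and the ratios. The members, their parental copy and all lists were chosen with earlier results of these data known. Every member was described; of the 2 context lists, up to 2 genes per direction with the smallest adjusted p were named, and Igf2, Dcn and Apoe always. Trappc9 was named because Peg13 lies in it, Copg2 and Gm44732 because they overlap Mest and Cdkn1c, and Gm20721 and Nespas because they overlap Gnas, after their values were seen.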

Additional observations from a re-analysis of the deposited data

Results flagged for a closer look

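Mest in Ang II 1 was read at 3.74 FPKM, far above the other 7 Ang II libraries, and its gap to the nearest of them on log2(FPKM + 1) was 0.604 of the range of the group, past Dixon's critical value for 8 libraries. It was the only flag in 38 groups of 8 libraries, where chance alone flags about 5% of groups.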

How the results depend on the processing

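Rian, Igf2r and Cdkn1c kept their calls in all 28 alternatives and Peg13 in 27. The members called higher and lower, 2 and 2, kept both counts in 19 of the 28 alternatives. They were 4 and 4 without Saline 7 and Saline 8, 4 and 4 without Saline 2 as well, and 2 and 1 with the Wilcoxon test. With no filter, with quantile normalization and with voom filtered at a mean of 10 reads they were 3 and 2. With the adipocyte score and without Saline 2 alone they were 2 and 3, and without Saline 8 alone 3 and 3. The cause was not tested. The maternal median became 0.43 in both omissions, and the paternal median -0.051 with no filter, where more genes near 0 enter. The median over all members tested was 0.13 with a pseudocount of 0.1, -0.15 without Saline 2, Saline 7 and Saline 8, and 0.14 in both voom fits. The log2 ratio of Mirg to Meg3 turned to 0.13 and 0.19 in the 2 omissions. Signs turned for Gnas (-0.12 with the adipocyte score, -0.19 without the 3 libraries), Slc22a18 (-0.15 and -0.090), Grb10 (-0.010), Mest (-0.014) and Nnat (-0.15) without the 3 libraries, and Impact (0.066 with quantile normalization, 0.081 with median ratio scaling). With each library left out in turn, Nnat ran from -0.14 to 0.19, Plagl1 from -0.42 to 0.014 and Slc22a18 from -0.034 to 0.14, and 2 to 3 members were called in each direction.

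Replicate numbers did not pair the groups: same-numbered libraries correlated between -0.25 and 0.39, and 2 of 8 saline libraries correlated best with their own number. With the replicate block 2 members were called higher and 2 lower, and over all genes 1414 and 3531 against 1431 and 3741. Over all genes, 2235 were higher and 2113 lower after median ratio scaling and 2270 and 2374 after quantile normalization, against 1431 and 3741. The adipocyte score left 771 and 1860. Of the 13 untested members 7 had a mean under 10 reads, where depth limits what can be seen, and 6 did not; Kcnq1ot1, with 119 to 480 reads per library, was below the FPKM filter through its length.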
